A study of Mus musculus with 25 samples.

Results

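Autosomal regions that carried both H3K9me3 and H3K27me3 were collected from ChIP-seq peak lists of regenerating mouse myofibers. Peaks that overlapped on chromosomes 1 to 19 were merged over the 12 H3K9me3 lists, and separately over the 12 H3K27me3 lists. An H3K9me3 region was kept where it shared at least 1 bp with an H3K27me3 region. Of 11350 autosomal H3K9me3 regions, 76 met this rule (0.67%), and they lay on 78 of 13095 H3K27me3 regions (0.596%). The regions were thus chosen by the listed peaks of both marks, so which lists hold them, how many of them a list holds, and how high and how wide their peaks are, are descriptions, with no test.

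H3K9me3, the trimethylation of lysine 9 of histone H3, is the mark of constitutive heterochromatin. It is written by the SUV39H and SETDB1 enzymes and is best known at satellite repeats, transposable elements and clusters of KRAB zinc finger genes. H3K27me3 is written by Polycomb repressive complex 2 and covers silent developmental genes, often at CG-rich promoters. The marks are usually found in separate stretches of the genome.

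All mice carried Pax7-Cre(ERT2), a recombinase that tamoxifen switches on in muscle stem cells, together with mito-Dendra2, which labels the progeny of these cells. Wild-type mice were compared with mfn2-/- mice, which lack the mitochondrial fusion protein mitofusin 2, with vhl-/- mice, which lack the protein that targets HIF1α for degradation, and with HIF1dPA mice, which express a HIF1α that escapes it. Each mouse received tamoxifen at 75 mg/kg for 5 days, 2 days later 50 µL of 1.2% BaCl2 into the tibialis anterior muscle, and gave Dendra2+ myofibers at 14 days post injury (dpi). Because the driver acts in stem cells, the alleles are recombined in the new myofibers and not in other cells of the muscle, and dissected fibers may bring such cells along. Age, sex and strain are not given in the labels. Each genotype had 3 libraries per mark, 24 in all. The study describes them as biological replicates from different mice, and the labels do not tie a library to an animal. Each peak has a score, the negative log10 of its p-value multiplied by 10, and no score under 50 is listed. Autosomal peaks numbered 780 to 2407 per H3K9me3 list and 474 to 4023 per H3K27me3 list. Sequencing depth is unknown, a score grows with depth, and a missing peak says only that none was listed. Peak lists hold no expression, so the identity of the tissue was not checked.

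A few promoters in or beside regions with both marks are printed to show how unlike their sequences were. They are RefSeq windows of 300 bases on GRCm38.p6, which shares coordinates with the mm10 build of the lists, written 5′ to 3′ on the strand of the gene. Windows of 4 genes overlapped the H3K9me3 part of such a region, those of Gm40237, Tchh, Gm36079 and Tcfl5. The Tcfl5 window, with 2 bases in the H3K9me3 region and 35 CG, is not printed. The Nkx2-4 window is printed although it did not overlap the H3K9me3 part. The Gm40237 window (chr4:118547156-118547455, plus strand) lay wholly inside a region that the lists assign to Tmem125, and its capitals mark a 20-base run. In the other windows capitals mark each CG, the dinucleotide at which DNA is methylated.
Gm40237: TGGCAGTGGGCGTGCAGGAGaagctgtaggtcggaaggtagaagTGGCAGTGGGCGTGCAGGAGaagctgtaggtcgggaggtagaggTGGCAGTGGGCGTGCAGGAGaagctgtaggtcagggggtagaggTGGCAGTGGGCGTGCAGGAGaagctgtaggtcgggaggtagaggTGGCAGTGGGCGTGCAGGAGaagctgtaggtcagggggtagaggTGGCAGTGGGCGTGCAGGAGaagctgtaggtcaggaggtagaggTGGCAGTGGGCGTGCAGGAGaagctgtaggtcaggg
Tchh: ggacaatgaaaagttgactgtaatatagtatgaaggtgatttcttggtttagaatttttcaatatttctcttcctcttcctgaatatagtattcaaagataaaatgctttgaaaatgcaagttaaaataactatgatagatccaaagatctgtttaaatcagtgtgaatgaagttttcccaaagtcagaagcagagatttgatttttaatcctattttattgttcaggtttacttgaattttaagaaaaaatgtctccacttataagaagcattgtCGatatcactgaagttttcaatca
Gm36079: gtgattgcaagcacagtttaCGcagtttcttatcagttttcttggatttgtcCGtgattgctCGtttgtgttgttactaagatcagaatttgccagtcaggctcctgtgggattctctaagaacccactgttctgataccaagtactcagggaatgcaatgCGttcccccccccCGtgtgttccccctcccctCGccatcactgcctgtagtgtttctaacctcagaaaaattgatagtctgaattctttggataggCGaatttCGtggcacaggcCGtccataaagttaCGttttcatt
Nkx2-4: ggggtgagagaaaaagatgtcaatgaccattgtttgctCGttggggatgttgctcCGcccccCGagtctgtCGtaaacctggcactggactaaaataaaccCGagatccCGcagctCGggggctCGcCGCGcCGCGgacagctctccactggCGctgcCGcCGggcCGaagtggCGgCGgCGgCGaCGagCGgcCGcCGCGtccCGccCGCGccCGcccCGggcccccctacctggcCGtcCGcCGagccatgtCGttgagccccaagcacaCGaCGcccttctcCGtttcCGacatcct
The run TGGCAGTGGGCGTGCAGGAG occurred 7 times in the Gm40237 window, each copy 44 bases after the last. On either strand it was present in 2 of 32851 RefSeq promoter windows (0.00609%), both of them overlapping windows of Gm40237. Any 20-base run in 3 or more copies was held by 133 windows (0.405%). The Tchh window (chr3:93442080-93442379, plus strand) held 1 CG, and 253 of its bases lay in the H3K9me3 region. The Gm36079 window (chr13:120027330-120027629, minus strand) held 10 CG, and 41 of its bases lay in an H3K9me3 region. The Nkx2-4 window (chr2:147085296-147085595, minus strand) lay under the H3K27me3 region, while the H3K9me3 peak was at chr2:147089545-147090118, and it held 38 CG. The median over all windows was 7 CG, 94.6% held at least 1, and 4.95% held 38 or more.

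Regions with both marks were short and few. They covered 145.9 kb, of which 70.98 kb was shared by the marks, or 0.759% of the H3K9me3 length of 9.351 Mb and 0.491% of the H3K27me3 length of 14.46 Mb. Their median width was 893 bp (342 to 27111 bp), beside 592 bp for the other H3K9me3 regions. A median of 721 bp was shared, and 31 of the 76 lay wholly inside H3K27me3 regions. In all 76 at least 1 H3K9me3 peak and 1 H3K27me3 peak overlapped directly. Such a direct overlap was found within a genotype in 53 regions, and in the other 23 it joined lists of different genotypes. At the edge of the rule, the smallest overlaps were 2 bp near Wls, 38 bp near Klf14 and 85 bp near Gm5466. The nearest regions that missed it had 32 bases between the marks near Gm5466, 135 near Cdkn1a and 191 near 4930417H01Rik.

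Many regions rested on few lists, though fewer of them on 1 list than regions of either mark at large. H3K9me3 was listed in 1 library only in 34 of 76 regions (44.7%, beside 84.3% of all autosomal H3K9me3 regions), and H3K27me3 was listed in 1 library only in 27. Of the 78 H3K27me3 regions beneath them, 39.7% were in 1 library, beside 69.6% of all autosomal H3K27me3 regions. In 12 regions each mark rested on 1 library. At the other end, 9 regions had H3K9me3 in all 12 libraries, out of 35 such regions on the autosomes. H3K27me3 was in all 12 libraries in 7 regions. These lay on 5 of the 23 such H3K27me3 regions on the autosomes, because 3 near Gm21188 and Gm36079 shared the same one. Taking 6 libraries as the limit, 9 regions had both marks in 6 or more, 20 had H3K9me3 in 6 or more and H3K27me3 in fewer, 12 had the reverse, and 35 had both in fewer than 6.

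**Figure D1:**
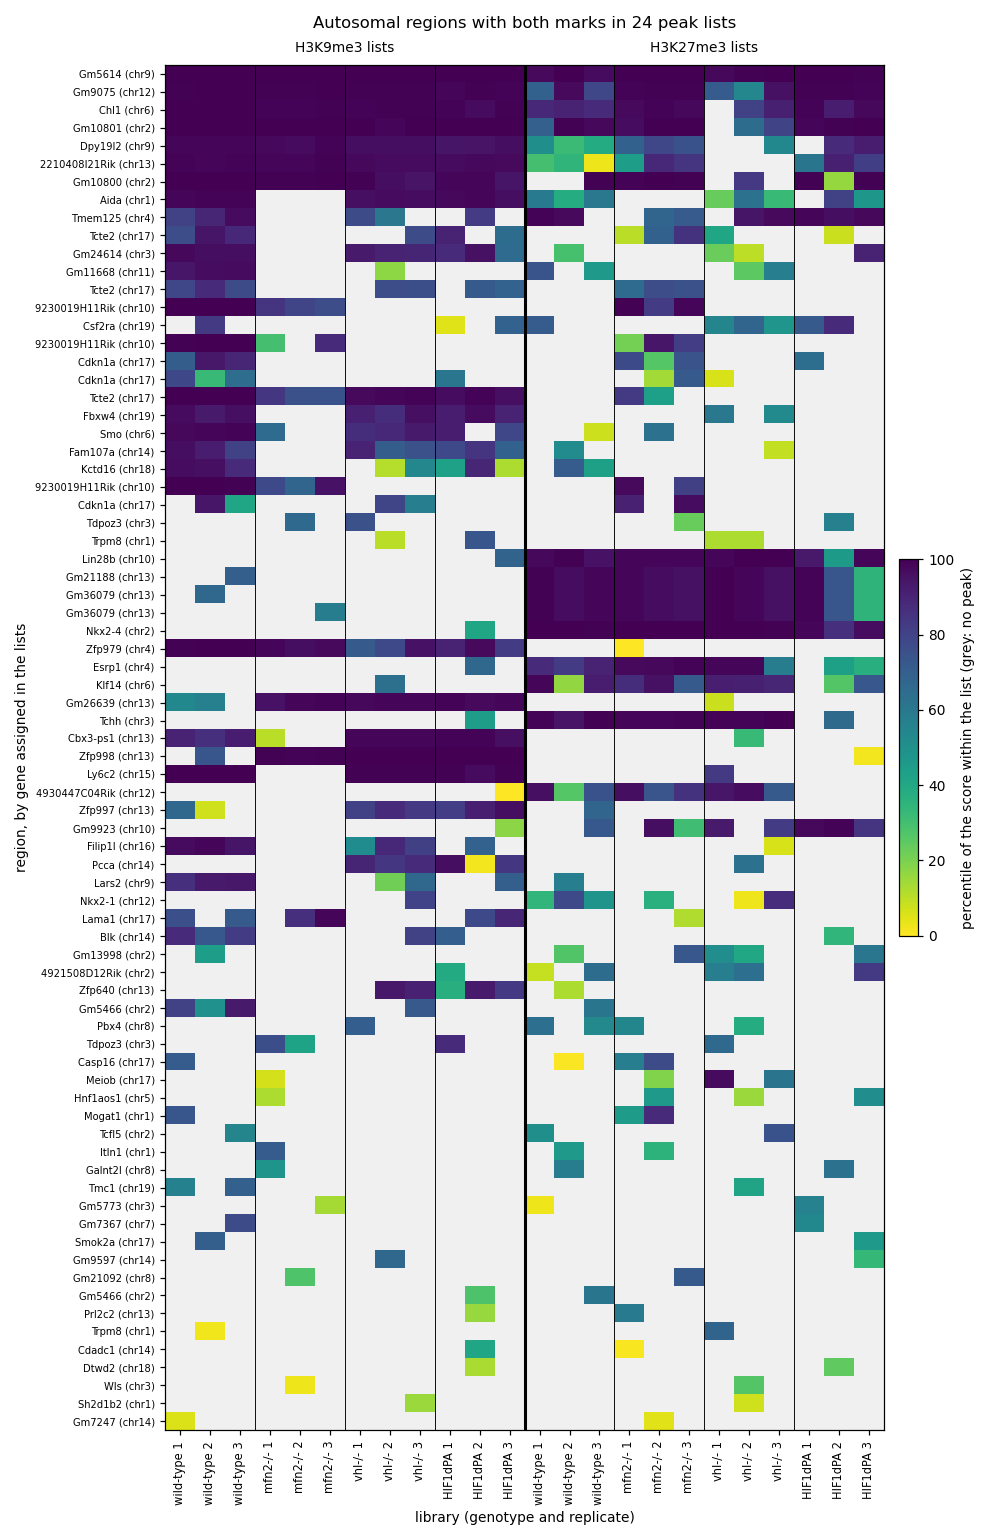
Score percentile within each peak list (colour, 0 to 100, grey where no peak is listed) for the 76 regions with both marks (rows, by assigned gene) in 12 H3K9me3 and 12 H3K27me3 libraries (columns, 3 per genotype). The first 7 rows have H3K9me3 in all 12 libraries, a block around Lin28b and Nkx2-4 has H3K27me3 in nearly all and H3K9me3 in 1, and the last rows rest on 1 library of each mark.

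**Figure D2:**
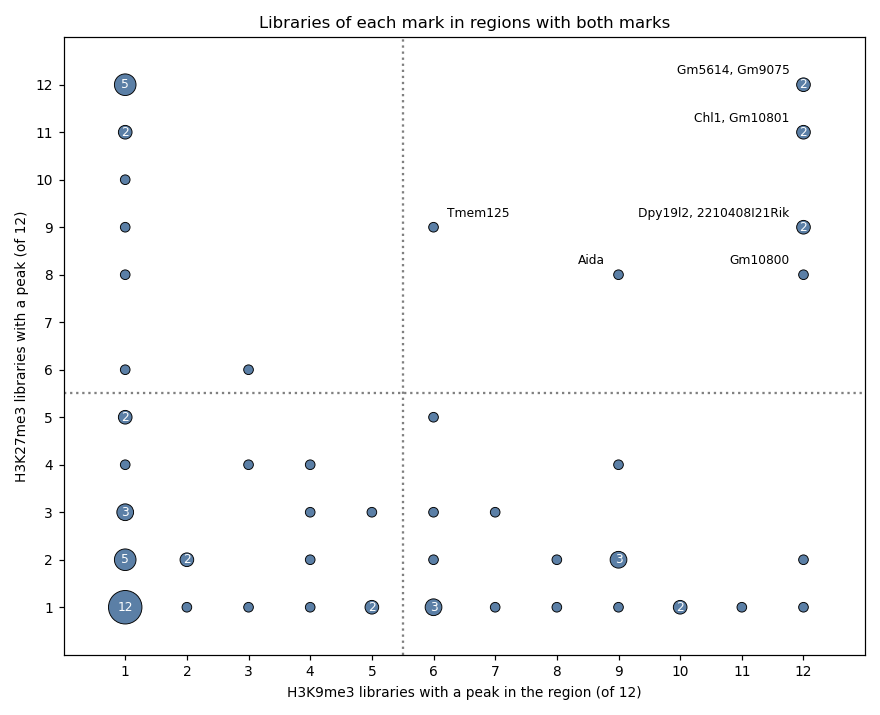
Number of H3K9me3 libraries (horizontal axis, of 12) and of H3K27me3 libraries (vertical axis, of 12) with a peak in each of the 76 regions. Circle area grows with the number of regions at a point, printed inside where it is above 1; the dotted lines separate under 6 from 6 or more libraries, and 9 labelled regions lie in the upper right.

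The 9 regions with both marks in 6 or more libraries lay near Gm5614, Gm9075, Chl1, Gm10801, Dpy19l2, 2210408I21Rik, Gm10800, Aida and Tmem125. Their peaks ranked high within H3K9me3 lists, with a median score percentile of 98.3, and also within H3K27me3 lists, at 87.0. The region near Gm5614, a predicted gene, was at chr9:35304774-35305924, 1151 bp that were all shared. Its H3K9me3 scores were 1509, 1483 and 1504 in wild-type, 578.1, 919.2 and 1927 in mfn2-/-, 836, 753 and 714 in vhl-/-, and 578.1, 566 and 767 in HIF1dPA libraries. Its H3K27me3 scores were 205, 336 and 178 in wild-type, 590.01, 866 and 704 in mfn2-/-, 253, 347 and 428 in vhl-/-, and 510.2, 522 and 449.6 in HIF1dPA libraries. Every library had a peak there, and for H3K27me3 it was the highest in the list in replicates 1 and 2 of mfn2-/-. The region near Gm9075 (chr12:3109344-3110645), intergenic and also predicted, was the other one with a peak in all 24 lists. Its scores were 253 to 990 for H3K9me3 and 68.5 to 331 for H3K27me3.

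Within Chl1, the gene of a neural adhesion molecule, both marks lay at chr6:103648528-103649786, annotated to an exon in most lists and to intron 4 in others. H3K9me3 was in all 12 libraries (176 to 872) and H3K27me3 in 11, missing from vhl-/- replicate 1. Gm10801 and Gm10800 are predicted genes in an assembled copy of satellite repeat, and their neighbouring regions on chromosome 2 spanned 6.15 kb from position 98661690 to 98667840. The Gm10801 region held H3K9me3 scores of 1876, 2700.3 and 1986 in wild-type, 770.2, 1641 and 3100 in mfn2-/-, 704, 285 and 719 in vhl-/-, and 612, 646 and 803 in HIF1dPA. The score of 3100 is the highest in the lists, which 4 peaks have, 1 of them in these regions. Its H3K27me3 scores were 80.3, 273 and 199 in wild-type, 166, 818 and 549.95 in mfn2-/-, 79.6 and 98.4 in vhl-/- replicates 2 and 3, and 126, 355 and 472 in HIF1dPA. There the mfn2-/- replicates differed widely for both marks, and their H3K9me3 scores spanned those of wild-type. All H3K9me3 scores of vhl-/- and HIF1dPA were below all of wild-type. H3K27me3 scores of each mutant overlapped those of wild-type. The input library's signal at these positions was not analysed here, and the lists do not say how reads from repeated sequence were placed, so its part in the overlap was not tested.

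Dpy19l2, which is needed to shape the sperm head, lay 14372 bp from a region at chr9:24541623-24542675 with H3K9me3 in 12 and H3K27me3 in 9 libraries. The intron of 2210408I21Rik (chr13:77438442-77439485) had H3K9me3 in 12 libraries. H3K27me3 was listed there in all 9 libraries of wild-type, mfn2-/- and HIF1dPA, at 50.3 to 105, and in none of vhl-/-. Aida, which codes for an axin-binding protein, had both marks at its promoter (chr1:183299002-183299820). H3K9me3 scores there were 364, 400.3 and 515 in wild-type, 196, 219.9 and 204 in vhl-/-, and 224, 256 and 172 in HIF1dPA. H3K27me3 scores were 70.3, 58.0 and 67.3 in wild-type, 54.8, 76.7 and 57.1 in vhl-/-, and 68.4 and 55.7 in HIF1dPA replicates 2 and 3. No mfn2-/- library listed either mark at Aida, whereas every wild-type and vhl-/- library listed both. The tandem repeat at Gm40237, assigned to Tmem125, had H3K9me3 in 3 wild-type, 2 vhl-/- and 1 HIF1dPA library, and H3K27me3 in 2 libraries each of wild-type, mfn2-/- and vhl-/- and in 3 of HIF1dPA.

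Of the 12 regions with the most libraries in their rarer mark, the other 3 were near Tcte2 (chr17:13589448-13591736), Gm24614 and Gm11668. Near Gm24614 (chr3:8244901-8246926) H3K9me3 was in 9 libraries and H3K27me3 in 4, and near Gm11668 (chr11:109011409-109012315) both marks were in 4. Neither region had a peak of either mark in any mfn2-/- library.

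In 12 regions H3K27me3 was broadly listed while H3K9me3 came from few libraries, 1 in 11 of the 12. Their median width was 596.5 bp, beside 592 bp for H3K9me3 regions without H3K27me3, and a median of 100% of their length was shared. Their median H3K9me3 percentile was 60.2. Lin28b codes for an RNA-binding protein that blocks let-7 maturation in early cells. It had H3K27me3 in all 12 libraries, at 221, 302 and 156 in wild-type, 214, 217 and 236 in mfn2-/-, 273, 649.5 and 399.9 in vhl-/-, and 81.4, 54.7 and 116 in HIF1dPA. H3K9me3 was listed at Lin28b only in HIF1dPA replicate 3, at 67.4 (chr10:45473943-45474707). Nkx2-4, a homeobox factor of the forebrain, had H3K27me3 from 74.7 to 934 in 12 libraries and H3K9me3 in HIF1dPA replicate 2 alone, at 55.8. Its relative Nkx2-1, needed for thyroid and lung, had H3K27me3 in 6 libraries and H3K9me3 in vhl-/- replicate 3, at 79.9 (chr12:56518442-56519121).

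Predicted genes Gm21188 and Gm36079 shared an H3K27me3 region on chromosome 13 with a peak in all 12 libraries (53.7 to 452). It covered 3 separate H3K9me3 peaks within 5.92 kb, and each came from 1 library, with scores of 70.3 and 68.9 in wild-type replicates 3 and 2 and 60.2 in mfn2-/- replicate 3. Tchh, a hair follicle structural protein, had H3K27me3 in 10 libraries and H3K9me3 in HIF1dPA replicate 2, at 56.8. Esrp1, an epithelial splicing regulator, had H3K27me3 in 11 libraries and H3K9me3 in 1 of HIF1dPA. Klf14, a zinc finger transcription factor, had H3K27me3 in 11 and H3K9me3 in 1 of vhl-/-, where only 38 bp were shared. Csf2ra, a receptor for a myeloid growth factor, had H3K9me3 in 3 libraries and H3K27me3 in 6, both in its UTR.

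In 20 regions H3K9me3 was broadly listed and H3K27me3 came from fewer than 6 libraries. They were wider, with a median of 1827 bp, and their H3K27me3 peaks lay at a median percentile of 49.5. Zinc finger genes, the class best known for H3K9me3, were assigned to 4 of the 76 regions (5.26%, beside 7.99% of all autosomal H3K9me3 and 0.878% of all H3K27me3 regions): Zfp979, Zfp998, Zfp997 and Zfp640. Each met H3K27me3 in 1 library, at a score between 50.05 and 74.5. The Zfp979 region was the widest, 27111 bp at chr4:147593691-147620801. Its H3K9me3 scores were 733, 944 and 877 in wild-type, 257, 159.9 and 155 in mfn2-/-, 71.4, 76.4 and 172 in vhl-/-, and 112, 199 and 82.7 in HIF1dPA. The Zfp998 region (chr13:66425536-66439104) had another order. There wild-type replicate 2 alone listed a peak, at 73.2, whereas scores were 561, 457 and 463 in mfn2-/-, 985, 1009 and 856 in vhl-/-, and 1022, 846 and 879 in HIF1dPA. The 9 mutant libraries did not overlap the wild-type libraries, and the peak was among the 12 highest of every mutant list. Its H3K27me3 peak was in HIF1dPA replicate 3, at 50.1.

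Ly6c2, a monocyte surface antigen, had H3K9me3 in its neighbourhood (chr15:75085049-75087539) at 1600.5, 942 and 1339 in wild-type, 493, 612 and 402 in vhl-/-, and 444, 186 and 480.1 in HIF1dPA. None was listed in mfn2-/-, and H3K27me3 was listed in vhl-/- replicate 1 alone, at 112. Lars2, the mitochondrial leucyl-tRNA synthetase, which is on the list of satellite and ribosomal repeat loci, had H3K9me3 in 6 libraries and H3K27me3 in 1. That list took in 3 of the 76 regions (3.95%, beside 0.159% of all autosomal H3K9me3 and 0.084% of all H3K27me3 regions). Developmental transcription factor and Wnt genes took in 2, those of Nkx2-4 and Nkx2-1 (2.63%, beside 0.396% of H3K9me3 and 10.3% of H3K27me3 regions). Germline genes took in 1, Meiob, which acts in meiosis (1.32%, beside 0.0441% and 0.283%). Olfactory receptor, vomeronasal receptor, protocadherin, potassium channel and neurotransmitter receptor, imprinted, chromatin enzyme, muscle and HIF1 target lists had 0 members each. Of these, vomeronasal and trace-amine receptor genes made up 8.08% of all H3K9me3 regions, olfactory receptor genes 1.74%, and potassium channel and neurotransmitter receptor genes 2.67% of all H3K27me3 regions. Every other share was under 1%, with muscle genes at 0.0176% and 0.283% and HIF1 targets at 0.0264% and 0.0535%.

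By the annotation in the lists, which counts as promoter what lies within 3 kb of a start, 17 of the 76 regions were at promoters (22.4%, beside 9.51% of all autosomal H3K9me3 regions) and 39 were intergenic (51.3%, beside 67.8%). Introns held 16, exons 2 and UTRs 2. Of the H3K27me3 regions 38.3% were at promoters. The marks were assigned the same gene in 72 regions. Member peaks were wider than the other peaks of the same list in 12 of 12 libraries of each mark, with library medians of 770.0 to 1083 bp against 578 to 639.5 bp for H3K9me3. Their score percentiles were also higher in 12 of 12, with library medians of 82.8 to 97.5 for H3K9me3 and 62.8 to 98.0 for H3K27me3. Of the 10 highest H3K9me3 peaks of a list, 6 to 10 lay in these regions, and of the 10 highest H3K27me3 peaks 0 to 8 did. Wide peaks have more bases to share, so these values describe the regions and are no test of them.

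By chromosome, the share of H3K9me3 regions that also carried H3K27me3 ran from 0.058% on chromosome 7 (1 of 1725) and 0.0962% on chromosome 5 (1 of 1039) to 1.58% on chromosome 14 (6 of 380) and 1.91% on chromosome 19 (3 of 157). The highest numbers were 10 of 824 on chromosome 13 (1.21%), 10 of 798 on chromosome 17 (1.25%) and 8 of 520 on chromosome 2 (1.54%). Regions often came in groups, with 21 of the 76 in 8 groups of neighbours. Near 9230019H11Rik 3 regions spanned 8.37 kb, near Cdkn1a 3 spanned 4.26 kb, and near Tcte2 3 spanned 106.0 kb. Peaks of 1 group are not independent observations of a condition.

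In each of these 3 groups wild-type lists held H3K9me3 and mfn2-/- lists held H3K27me3, while vhl-/- and HIF1dPA lists differed from region to region. Near 9230019H11Rik, in the first 4 Mb of chromosome 10, the middle region (chr10:3110937-3115764) held the highest H3K9me3 peak of every wild-type list, at 2851, 2962 and 2858. In mfn2-/- lists its H3K9me3 scores were 82.0, 76.6 and 68.2, and no vhl-/- or HIF1dPA library listed a peak. H3K27me3 was listed there only in mfn2-/-, at 282, 88.4 and 233. The neighbour on its left (chr10:3109126-3110553) had wild-type H3K9me3 scores of 585, 796 and 845 and mfn2-/- scores of 54.95 and 82.0 in replicates 1 and 3. It too had H3K27me3 only in the mfn2-/- libraries, at 53.0, 131 and 90.6. The neighbour on its right (chr10:3115867-3117494) had H3K9me3 scores of 953, 976 and 768 in wild-type and 71.9, 67.3 and 114.8 in mfn2-/-. H3K27me3 was listed there in mfn2-/- replicates 1 and 3, at 179.6 and 89.4.

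Tcte2 lies in the t-complex of chromosome 17. The largest region assigned to it was annotated to its promoter (chr17:13549578-13553489), and the only RefSeq gene span it overlapped was 2700054A10Rik. H3K9me3 scores there were 1037, 1223 and 807 in wild-type, 80.5, 72.2 and 66.9 in mfn2-/-, 239.8, 304 and 391 in vhl-/-, and 182, 301 and 167 in HIF1dPA. H3K27me3 was listed only in mfn2-/- replicates 1 and 2, at 93.1 and 57.8. A smaller region annotated to an intron of Tcte2 (chr17:13654487-13655551) lay 295 bp from the nearest RefSeq gene, Gm41530. Its H3K9me3 scores were 79.2, 96.0 and 76.1 in wild-type, with 2 libraries each in vhl-/- and HIF1dPA and none in mfn2-/-. H3K27me3 was listed there only in mfn2-/-, at 69.3, 77.3 and 79.3. Another region annotated to an intron of Tcte2 (chr17:13589448-13591736) lay 35354 bp from the nearest RefSeq gene, 2700054A10Rik. Its H3K9me3 scores were 76.0, 144 and 97.3 in wild-type and 75.5 in vhl-/- replicate 3. They were 111 and 65.3 in HIF1dPA replicates 1 and 3, and no mfn2-/- library listed a peak. H3K27me3 was there at 51.4, 69.5 and 97.95 in mfn2-/-, at 60.7 in vhl-/- replicate 1, at 50.6 in HIF1dPA replicate 2, and in no wild-type library.

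Cdkn1a codes for p21, an inhibitor of cyclin-dependent kinases that halts the cell cycle as muscle cells differentiate. Its 3 regions were intergenic, and the first (chr17:29102747-29103591) started 2025 bp past the RefSeq span of the gene. There H3K9me3 was listed only in wild-type, at 71.6, 131 and 100.4, and H3K27me3 in mfn2-/-, at 83.9, 54.0 and 78.7, and in HIF1dPA replicate 1, at 57.8. The next (chr17:29103943-29105445) had H3K9me3 in 2 wild-type and 2 vhl-/- libraries and H3K27me3 in mfn2-/- replicates 1 and 3, at 117 and 178. The last (chr17:29105766-29107009) had H3K9me3 in 3 wild-type and 1 HIF1dPA library and H3K27me3 in 2 mfn2-/- and 1 vhl-/- library. Most of these scores were low, near the limit of 50.

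**Figure D3:**
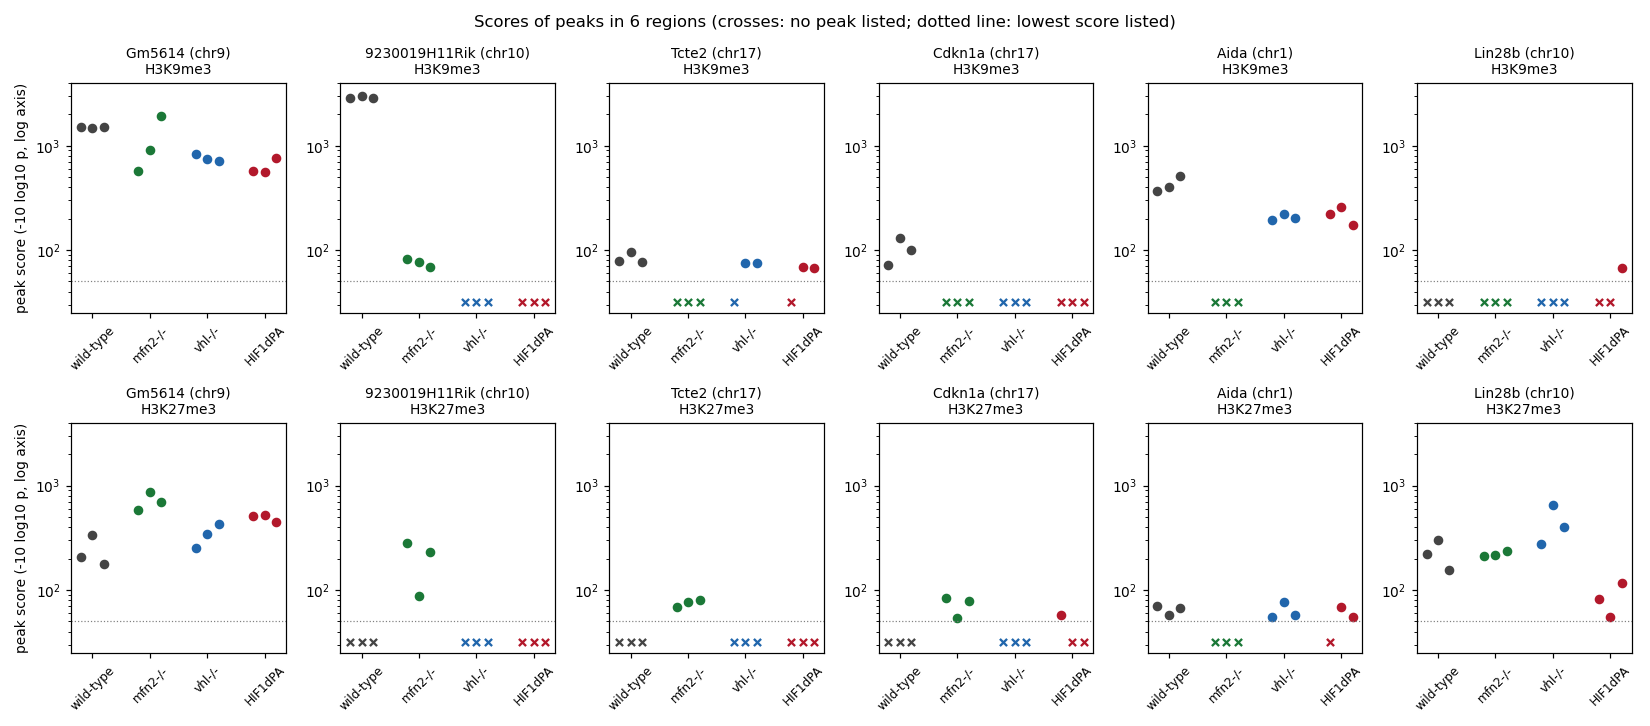
Peak scores (log axis, 3 libraries per genotype as points) of H3K9me3 (top) and H3K27me3 (bottom) in 6 regions, with crosses for libraries that list no peak. Gm5614 has both marks in all 24 libraries, 9230019H11Rik goes from 2851 to 2962 in wild-type to no H3K9me3 peak in vhl-/- and HIF1dPA, and Lin28b has 1 H3K9me3 peak.

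To ask whether a region separates genotypes, it was counted where all 3 libraries of one genotype listed the mark and no library of the other did. Because the rule uses these peaks, nothing is read from the counts. The shares over all autosomal regions include regions listed in 1 library, which cannot meet this count. H3K9me3 was listed only in wild-type, against mfn2-/-, in 16 of the 76 regions, beside 1.25% of all autosomal H3K9me3 regions. Of regions listed in 3 or more of these 6 libraries, that was 16 of 33 (48.5%), beside 30.0% over the autosomes. They included Aida, 2 regions of Tcte2, 2 of Cdkn1a, Fbxw4, Kctd16, Ly6c2, Filip1l and Lars2. No region with both marks had H3K9me3 only in mfn2-/-, beside 0.167%. H3K27me3 was listed only in mfn2-/-, against wild-type, in 5 of the 76, beside 0.145% of all autosomal H3K27me3 regions, which is 19 regions in all. Of regions with both marks listed in 3 or more of these 6 libraries, that was 5 of 27 (18.5%). The matching share over the autosomes was worked out only for H3K9me3 in wild-type against mfn2-/-. The 5 members were 2 regions each of Tcte2 and 9230019H11Rik and 1 of Cdkn1a. In 3 of them, 2 of Tcte2 and 1 of Cdkn1a, H3K9me3 was also listed only in wild-type. The reverse, H3K27me3 only in wild-type, held for Aida alone, beside 0.565%.

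Against vhl-/-, H3K9me3 was listed only in wild-type in 5 regions, beside 0.722% of all. All 5 lay in the groups of neighbours near 9230019H11Rik and Cdkn1a. It was listed only in vhl-/- in 1, Pcca, which codes for a subunit of propionyl-CoA carboxylase, beside 0.361%. Against HIF1dPA, it was listed only in wild-type in 6 regions, beside 0.74%. These were the group near 9230019H11Rik and regions near Gm11668, Cdkn1a and Gm5466. It was listed only in HIF1dPA in 2, Pcca and Zfp640, beside 0.441%. Of members listed in 3 or more of the 6 libraries compared, the regions only in wild-type made up 14.3% against vhl-/- and 16.2% against HIF1dPA. No matching share over the autosomes was worked out. H3K27me3 was listed only in wild-type in 1 region against vhl-/-, that in 2210408I21Rik, beside 0.26%. Against HIF1dPA this was so in 2 regions, 4930447C04Rik and Nkx2-1, beside 2.7%. No region had H3K27me3 only in vhl-/-, beside 0.466%, or only in HIF1dPA, beside 0.0%. These comparisons share the 3 wild-type libraries of a mark.

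Both marks were listed within a genotype in 56 of the 76 regions. This was so in 1 genotype in 41 regions, in 2 in 5, in 3 in 4 and in all 4 genotypes in 6. By genotype, wild-type had both marks in 23 regions (9 of them in that genotype only), mfn2-/- in 20 (12), vhl-/- in 23 (11) and HIF1dPA in 21 (9). Among those of 1 genotype were Kctd16, Gm21188 and Gm36079 in wild-type, and 9230019H11Rik and the region annotated to the Tcte2 promoter in mfn2-/-. Fbxw4, Trpm8 and Klf14 were among them in vhl-/-, and Lin28b, Nkx2-4 and Esrp1 in HIF1dPA. All 3 libraries of both marks held a peak in at least 1 genotype in 9 regions. These were Gm5614, Gm9075, Chl1, Gm10801, Dpy19l2, 2210408I21Rik, Gm10800, Aida and the middle 9230019H11Rik region.

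Counts over pairs of genotypes follow how many of the 76 regions each genotype had in at least 1 library. For H3K9me3 this was 47 for wild-type, 27 for mfn2-/-, 38 for vhl-/- lists and 44 for HIF1dPA, and for H3K27me3 it was 39, 43, 43 and 34 in the same order. H3K9me3 in wild-type met H3K27me3 in mfn2-/- in 26 regions, 55.3% of the first and 60.5% of the second, and in 12 of these all 3 libraries of each held a peak. H3K9me3 in wild-type met H3K27me3 in wild-type in 23 regions, 48.9% and 59.0%, 7 of them in all 3 libraries of each. Between mfn2-/- lists the marks met in 20 regions, 74.1% of those with H3K9me3 and 46.5% of those with H3K27me3. H3K9me3 in HIF1dPA met H3K27me3 in vhl-/- in 28 regions, 63.6% and 65.1%, 3 of them in all 3 libraries of each. In 13 regions H3K9me3 was listed in wild-type and H3K27me3 in mfn2-/- but not in wild-type, and 10 of the 13 lay on chromosomes 10 and 17, where neighbouring regions share a locus. The reverse, H3K9me3 in mfn2-/- and H3K27me3 in wild-type but not in mfn2-/-, was found in 2, with fewer H3K9me3 regions in mfn2-/- to start from.

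**Figure D4:**
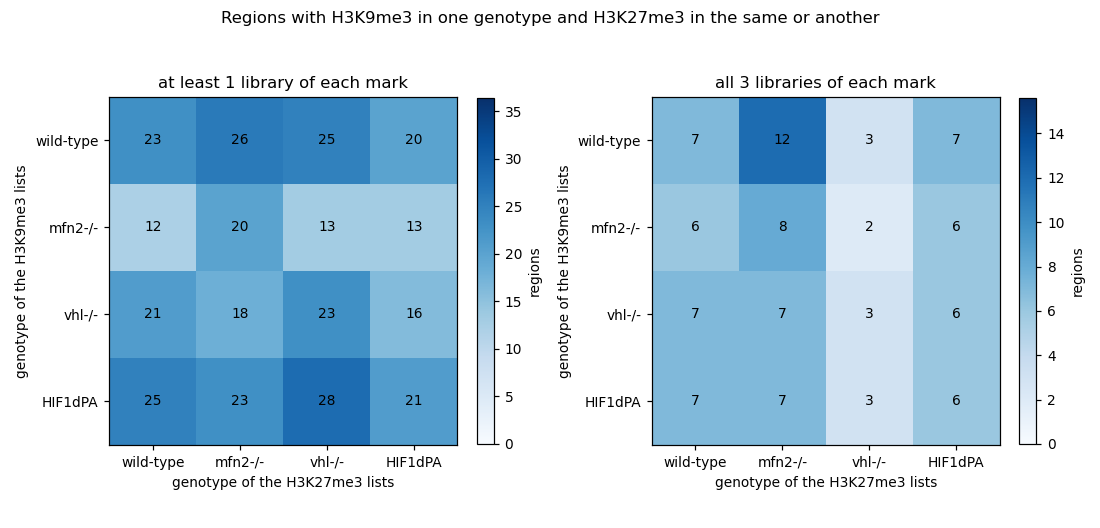
Number of regions with H3K9me3 in the genotype of the row and H3K27me3 in the genotype of the column, in at least 1 library of each (left) or in all 3 libraries of each (right). On the right the cell of wild-type H3K9me3 and mfn2-/- H3K27me3 holds 12 regions, and the column of vhl-/- H3K27me3 holds 2 or 3.

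How much of a list fell in the 76 regions is given with its spread over libraries and with no test, since the lists are the ones that chose the regions. The regions took 1.95% ± 0.0943 of the autosomal H3K9me3 peaks of wild-type lists (SD; n = 3 in each genotype). The share was 3.43% ± 0.811 for mfn2-/-, 3.90% ± 0.293 for vhl-/- lists and 3.06% ± 0.548 for HIF1dPA. The mutant mean was 1.51 percentage points above that of wild-type, and the 9 mutant libraries did not overlap the 3 wild-type libraries. Wild-type lists were also the longest, with 2176 to 2407 autosomal H3K9me3 peaks against 780 to 1588 in the mutants. With the 780 strongest peaks of each list and the same 76 regions, an alternative added after seeing the data, the share was 4.87% ± 0.222 in wild-type. It was then 3.97% ± 0.222 for mfn2-/-, 5.38% ± 0.841 for vhl-/- lists and 4.79% ± 0.267 for HIF1dPA (n = 3 each), a difference of mutants minus wild-type of -0.157 points, within the spread of replicates. Where the regions were also rebuilt from shortened lists of both marks, which left 29 of them, 2.44% ± 0.128 of wild-type peaks lay in regions with both marks. The mutant genotypes then had 1.67% to 1.75%, a difference of mutants minus wild-type of -0.741 points. At equal list length the mutants together did not have the higher share of the full lists. With the same 76 regions, however, the mean of vhl-/- lists was above that of wild-type, at 5.38% against 4.87%. The part of list length was not tested.

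In numbers, a wild-type library listed H3K9me3 in 37.3 ± 1.53 of the 76 regions (SD; n = 3 in each genotype). An mfn2-/- library did so in 18.7 ± 2.08, a vhl-/- library in 28.7 ± 4.04 and a HIF1dPA library in 30.3 ± 2.52. All 9 mutant libraries, at 17 to 33, were below the wild-type libraries, at 36 to 39. The geometric mean of the mutants over that of wild-type was 0.676, and 0.693 with the 780 strongest peaks of each list and the same regions. Set against wild-type, the ratio was 0.498 in mfn2-/-, 0.763 in vhl-/- libraries and 0.811 in HIF1dPA.

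The regions took 1.18% ± 0.236 of the autosomal H3K27me3 peaks of wild-type lists (SD; n = 3 in each genotype). The share was 2.15% ± 0.267 for mfn2-/-, 1.15% ± 0.0733 for vhl-/- lists and 4.36% ± 0.881 for HIF1dPA. The lists of mfn2-/- and HIF1dPA did not overlap those of wild-type, and the mean of vhl-/- was within the wild-type spread. HIF1dPA lists held 474 to 496 autosomal peaks and the others 2342 to 4023. With the 474 strongest peaks of each list and the same regions, wild-type had a share of 3.31% ± 0.322, mfn2-/- of 4.50% ± 0.122, vhl-/- of 3.09% ± 0.487 and HIF1dPA of 4.43% ± 0.967 (n = 3 each). At that length the mfn2-/- lists lay above all wild-type lists, at 4.43% to 4.64% against 2.95% to 3.59%, whereas those of HIF1dPA overlapped them. Shortening the lists does not undo the choice of regions by these same peaks. Of the 76, 13 had H3K9me3 in wild-type and H3K27me3 in mfn2-/- but not in wild-type. Nothing is therefore read from this difference.

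A wild-type library listed H3K27me3 in 26 ± 1.73 of the 76 regions (SD; n = 3 in each genotype). An mfn2-/- library did so in 31 ± 1.73, a vhl-/- library in 27 ± 2.65 and a HIF1dPA library in 21.7 ± 4.04. All mfn2-/- libraries, at 30 to 33, were above all wild-type libraries, at 24 to 27, with a ratio of 1.19. HIF1dPA lists, the shortest of this mark, had 17 to 24 of the regions. For all mutants together the ratio to wild-type was 1.01, with mutant libraries on both sides of the wild-type libraries.

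**Figure D5:**
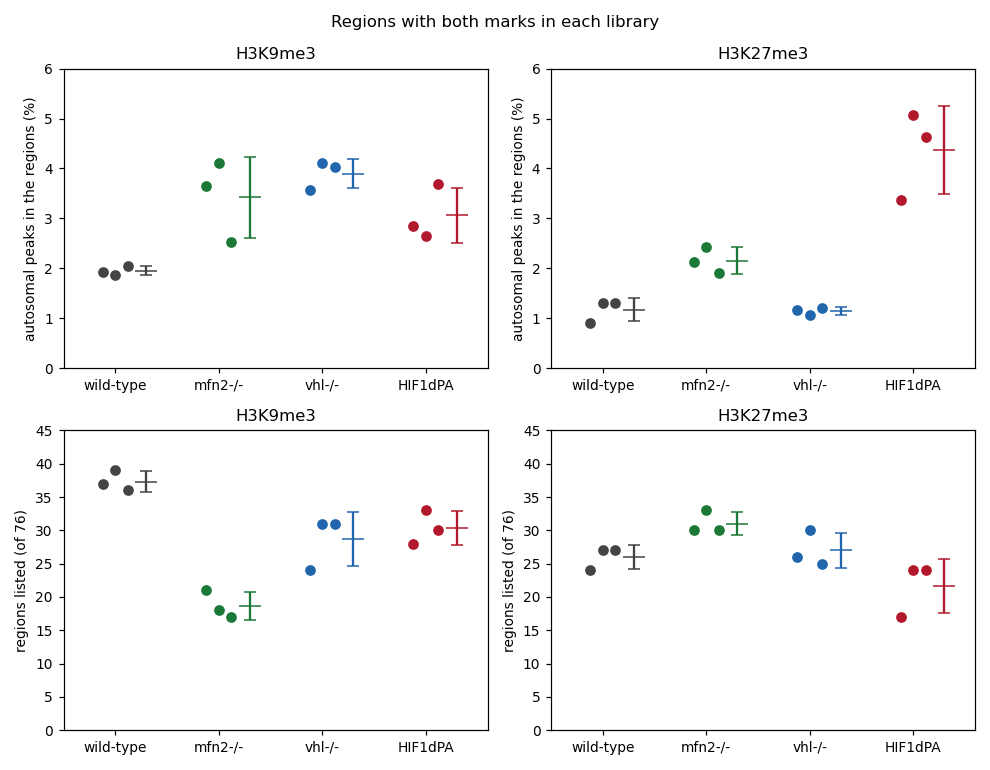
Percent of autosomal peaks in regions with both marks (top) and number of the 76 regions listed (bottom) for each H3K9me3 (left) and H3K27me3 (right) library, with the mean and SD of 3 libraries beside the points. Wild-type H3K9me3 lists have the lowest share, near 1.95%, and the most regions, 36 to 39; HIF1dPA H3K27me3 lists have the highest share, near 4.36%.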

How the data were processed

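The deposited files are 1 peak list per ChIP library. Per the labels, chromatin was fixed in 1% formaldehyde, sheared to about 500 bp and precipitated with antibodies to H3K9me3 or H3K27me3. The submitters' processing notes name BWA 0.7.5, MACS, deepTools 3.5.0 and mm10. The use of the 1 wild-type input library, which has no list here, the handling of duplicates and other filters are not given in the sources used here. The deposited score is the negative log10 of the p-value, multiplied by 10, and runs from 50 to 3100, so that lists stop at a p-value of 1e-05. Lists were called per library, not on pooled replicates. They hold no read totals, so depth and counting error are unknown.

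From these lists the regions were built as described above, over 17669 H3K9me3 and 30979 H3K27me3 autosomal peaks of 55242 in all. A library had a region where a peak of it was merged into that region. For H3K27me3 this was any region sharing at least 1 bp. Gene and annotation are those of the lists, and the gene of a region is the one given to most of its H3K9me3 peaks. Percentiles rank scores within a list. Members, gene lists and rules were chosen with earlier results of these data known. Genes were named by 5 rules: the 12 regions with the most libraries in the mark that has fewer, those with all 3 libraries of both marks in a genotype, up to 4 per gene list, 3 at each side of the overlap limit, and up to 3 per genotype with both marks there only. Others, such as Zfp998, Ly6c2, Pcca and Csf2ra, were named after their values were seen. Lists had 0 repeated positions and 0 identical pairs.

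Lists were compared by the mean and SD of 3 libraries per genotype, numbers on the log2 scale for ratios. Permutation tests of genotype, with and without a replicate block, were planned and run, but the lists they compare are those that chose the regions, so no p-value of them is given. Region building was tested on simulated data. Scripts ran in Python 3.11.15 with numpy 2.4.6 and pandas 2.3.3, and figures were drawn with matplotlib 3.10.9.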

Additional observations from a re-analysis of the deposited data

Results flagged for a closer look

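The same rule applied to the X chromosome, which the comparisons above leave out, gave 31 regions with both marks of 2235 H3K9me3 regions (1.39%, beside 0.67% on the autosomes). H3K9me3 was listed in wild-type in 30 of the 31, in mfn2-/- in 10, and in vhl-/- and HIF1dPA in 7 each. H3K27me3 was listed in mfn2-/- in 30, in wild-type in 3, in vhl-/- in 5 and in HIF1dPA in 4. The sex of the mice is not given in the labels, and its part was not tested. The Y chromosome had 3 such regions of 111.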

How the results depend on the processing

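The number of regions, 76, was 69 to 76 when each library was left out. It fell to 12 at a score of at least 100, to 29 with the same number of strongest peaks per library and to 26 where each mark had to be in at least 2 libraries. For each measure, the spread (highest minus lowest genotype mean, as a ratio for numbers) and the mutants against wild-type are given, with no test. The H3K9me3 share had a spread of 1.95 points and mutants 1.51 above wild-type. Leaving out libraries gave 1.56 to 2.11 and 1.25 to 1.56. At a score of at least 100 these were 4.21 and 2.54, with peaks within 1000 bp joined 3.55 and 2.55, and at 50% shared 0.403 and 0.243. With equal lists they were 0.769 and -0.741, or 1.41 and -0.157 with the regions kept. The number of regions with H3K9me3 had a spread of 2.01 and a ratio of 0.676 (1.92 to 2.13 and 0.653 to 0.71 without a library). The spread was 1.74 at a score of at least 100, 1.69 with equal lists and 2.23 without the first 4 Mb of each chromosome. At 50% shared the values were 2.37 and 0.565, and without the 9 regions in 6 or more libraries of both marks, chosen after seeing the data, 2.45 and 0.603.

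The H3K27me3 share had a spread of 3.21 points and a difference of 1.38 (2.86 to 3.71 and 1.06 to 1.56 without a library). These became 31.7 and 10.8 at a score of at least 100, 1.83 and 0.563 with equal lists, 1.41 and 0.703 with the regions kept, and 1.46 and 0.787 without the 9 regions. HIF1dPA lists held few peaks at a score of at least 100, so their shares there rest on few peaks. In replicates 1, 2 and 3 scores of 81.4, 90.96 and 82.3 already ranked 34, 39 and 41. The number with H3K27me3 had a spread of 1.45 and a ratio of 1.01 (1.29 to 1.64 and 0.949 to 1.06 without a library). These became 2.31 and 1.27 at a score of at least 100, 2.22 and 1.31 with equal lists, and 1.81 and 1.35 with the regions kept. With peaks joined they were 1.28 and 0.986, without the first 4 Mb the ratio was 0.975, and without the 9 regions the spread was 1.78. The causes were not tested. Depth is unknown and limits every absence. No paired analysis was possible because the labels do not tie a library to an animal. The replicate number was instead used as a replicate block in permutation tests. A block changes only the p-value, so the values of mutants against wild-type are the same with it by construction. They are 1.51 points and a ratio of 0.676 for H3K9me3, and 1.38 points and 1.01 for H3K27me3. No p-value is given, since the lists compared are those that chose the regions. Same-numbered libraries did not deviate together, with correlations between -0.04 and 0.04 over 18 pairs per mark.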
